A study of Mus musculus with 2 samples.

Results

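The Slc25 family holds the carriers of the inner mitochondrial membrane, and its transcripts were examined here in mouse heart. Members were the protein-coding genes of the GENCODE M21 annotation named Slc25a followed by a number, leaving out the ADP/ATP carriers Slc25a4 and Slc25a5 and the carnitine carrier Slc25a20. The rule gave 44 genes of the 55536 in the tables, of which 22028 were protein-coding, and it used names only and no measured value. Total RNA had been sequenced from heart tissue of adult female 5xFAD/CAST mice aged 8 to 10 months, with 300 ng of RNA and ERCC spike-ins, synthetic control RNAs, per library. The 5xFAD line models Alzheimer's disease with mutant human transgenes that the neuronal Thy1 promoter drives, and CAST denotes an inbred strain derived from wild mice. The study held 1 group of 2 biological replicates, so no genotype, age or treatment was contrasted, and levels, transcript choice and the spread between the libraries are described without tests. Each replicate had its own biosample but both carried 1 donor identifier, so an SD measured the spread between these libraries only.

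Mitochondrial carriers are small membrane proteins built from a repeated unit of paired membrane helices, and most of them exchange 1 solute for another across the inner membrane, which is otherwise closed to ions and metabolites. They bring phosphate and ADP to the ATP synthase, link the citric acid cycle and the redox state of the cytosol to the matrix, and supply the matrix with amino acids, cofactors, nucleotides, iron and glutathione. They are made in the cytosol without a cleaved presequence in most cases and are inserted by the TIM22 carrier import pathway. Heart muscle is rich in mitochondria and depends on this traffic for oxidative ATP supply.

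The libraries held 45599940 and 40801299 expected counts, which are estimated reads per gene. Counts of the replicates differed beyond sampling noise, with a chi-square per degree of freedom of 17.3 over the 12492 genes whose counts averaged at least 50. The heart label was matched by its markers, since 6 of 6 heart muscle genes were detected and summed to 25728 and 28326 TPM. Liver markers were under 1 TPM in at least 1 library, and the 3 testis markers had 0 counts in both. Summed levels of smooth muscle markers were 38.6 TPM in replicate 1 and 72.5 TPM in replicate 2, with 4 of 4 at least 25% higher in replicate 2, and 3 of 4 brown adipocyte markers whose counts averaged at least 50 were higher there too. Heart tissue is a mixture, and in such bulk samples fewer cells of a type and less RNA per cell cannot be told apart.

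Most members were expressed in heart, and by TPM 1 of them held more than all other members combined. A level of at least 1 TPM in both libraries, where TPM is relative transcript abundance corrected for length and scaled here over endogenous genes, was reached by 33 of 44 members (75.0%), against 48.9% of 22015 nuclear protein-coding genes. Another 2, Slc25a27 and Slc25a45, reached it in replicate 1 only, and 9 stayed under it in both libraries. These levels are totals over all transcripts of a gene, coding or not. The median of the 35 members detected in either library was 7.38 TPM, and that of 11223 nuclear protein-coding genes passing the same minimum was 7.37 TPM. Members together held 0.156% ± 0.0019 (SD, n = 2) of endogenous TPM, or 0.459% ± 0.0080 of what the nuclear protein-coding genes held. The phosphate carrier Slc25a3 made up 55.97% ± 0.035 of the members' TPM, and the 6 most abundant members made up 85.2% ± 0.075. Over expected counts, which are not corrected for length, the share of Slc25a3 among members was 43.68%. Slc25a4, left out by the rule, was higher than Slc25a3, at 1681.5 and 1680.8 TPM. Mean levels reached at least 10 TPM for 13 members and at least 100 TPM for 2.

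**Figure D1:**
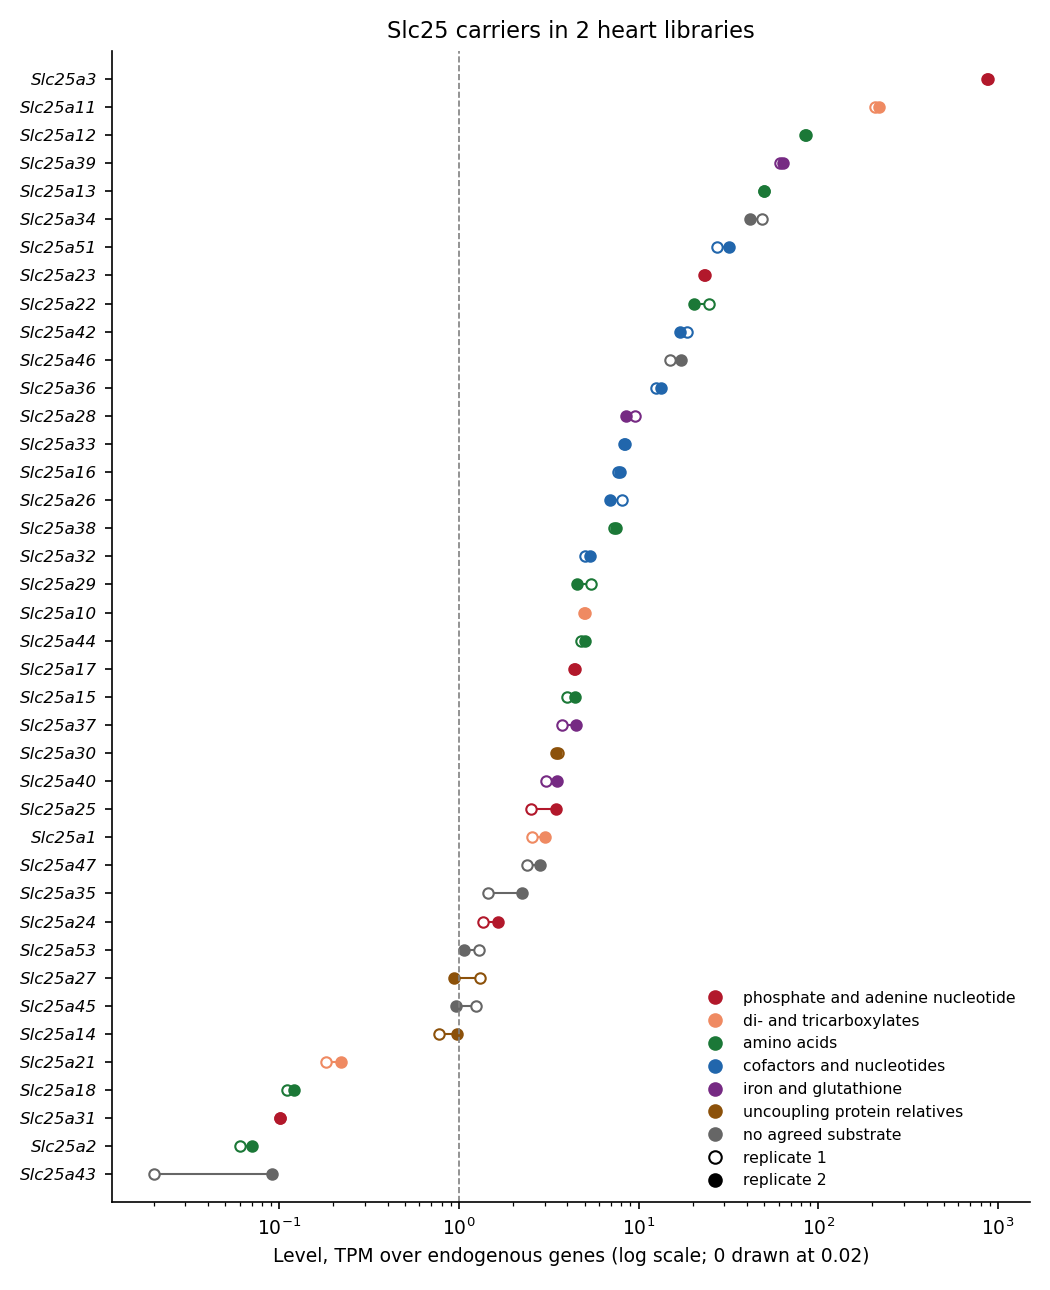
Level of the carriers described here that had counts in at least 1 library, in TPM over endogenous genes on a log scale, with replicate 1 as open and replicate 2 as filled circles, coloured by transported substrate; the dashed line marks 1 TPM and a value of 0 is drawn at 0.02. Slc25a3 (863.8 and 879.4 TPM) stands alone at the top, Slc25a11 (206.7 and 218.3 TPM) follows, and most members lie between 1 and 30 TPM with the replicates close together.

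Carriers of phosphate and adenine nucleotides were the most abundant role. Their 7 members summed to 903.9 ± 12.4 TPM, or 58.0% ± 0.093 of the TPM of all members. Slc25a3, which imports the phosphate for ATP synthesis, stood at 863.8 TPM in replicate 1 and 879.4 TPM in replicate 2. It ranked 38 among nuclear protein-coding genes, and the libraries differed by 1.03-fold in scaled counts. The muscle ADP/ATP carrier Slc25a4, which is not among the members and supplies the other substrate of the ATP synthase, stood at 1681.5 and 1680.8 TPM, a TPM ratio to Slc25a3 of 1.93 ± 0.025.

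The Slc25a3 gene (chromosome 10, 91116574 to 91124059, minus strand, mm10) carries a pair of mutually exclusive coding exons at position 3 of its transcripts. The form with exon A is known from heart and skeletal muscle and the form with exon B from most tissues. Both exons are shown because the transcripts below are grouped by which of them they hold. They were taken from the GENCODE M21 transcripts on mm10 and are written 5′ to 3′ along the transcript. Exon A lies at chr10:91122207-91122331 and exon B at chr10:91121922-91122043, both on the minus strand. Capitals mark the bases at which the aligned exons differ or that have no counterpart in the other exon.
Slc25a3 exon A: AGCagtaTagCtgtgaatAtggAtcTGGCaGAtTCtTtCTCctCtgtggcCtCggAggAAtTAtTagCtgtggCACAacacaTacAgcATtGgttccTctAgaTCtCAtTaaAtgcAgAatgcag
Slc25a3 exon B: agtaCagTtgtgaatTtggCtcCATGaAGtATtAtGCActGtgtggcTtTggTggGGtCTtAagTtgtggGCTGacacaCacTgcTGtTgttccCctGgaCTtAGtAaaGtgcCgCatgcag
Exon A has 125 bases and exon B has 122. They are identical at 77 of 122 aligned bases (63.1%), and 3 bases of exon A have no partner, so the pair differs at many positions along its whole length.

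Transcripts with exon A held 93.35% of the TPM of Slc25a3 in replicate 1 and 92.49% in replicate 2, a mean of 92.9% ± 0.61. Exon B was on 5.93% and 6.74%, and 0.71% and 0.78% lay on transcripts with neither exon. In the tables quantified directly from reads the exon A share was lower, at 82.65% and 82.49%, and the exon B share was 15.23% and 15.73%. Both kinds of table and both libraries thus placed the muscle form first, while the share of the minor form differed more between tables than between libraries. The main transcripts of the forms also differ in length, with 1341 bases for Slc25a3-206 (exon A) and 1612 for Slc25a3-201 (exon B), and by which difference reads were assigned was not tested.

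**Figure D2:**
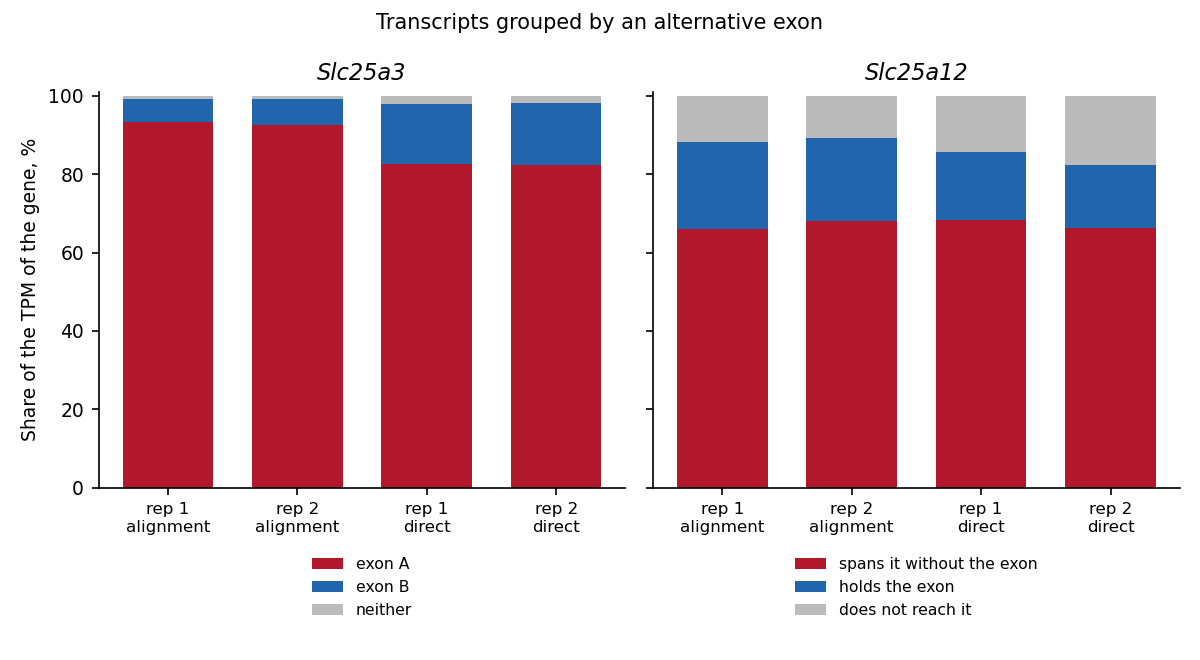
Share of the TPM of Slc25a3 (left) and Slc25a12 (right) on transcripts grouped by an alternative exon, in percent, for each replicate in the alignment-based and the direct transcript tables. Exon A of Slc25a3 takes 93.35% and 92.49% in the alignment-based and 82.65% and 82.49% in the direct tables, and transcripts of Slc25a12 that skip an internal coding exon take 65.93% to 68.28% in all 4 columns.

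The calcium-regulated ATP-Mg/phosphate carriers, which load the matrix with adenine nucleotides, were far lower than Slc25a3. Slc25a23 stood at 23.0 and 23.5 TPM, Slc25a25 at 2.52 and 3.46 TPM and Slc25a24 at 1.36 and 1.65 TPM. Slc25a41, the member of this group that lacks the calcium-binding domain, had 0 counts in both libraries, which allows up to 0.0704 and 0.0819 TPM. It lies beside Slc25a23 on chromosome 17 (57032773 to 57041654, with Slc25a23 at 57043711 to 57059863, both on the minus strand). A detected gene beside 1 without counts was also seen on chromosome 3, there with both on the plus strand. Slc25a24 (109123149 to 109168457) was detected and its neighbour Slc25a54 (109080469 to 109116687) had 0 counts, allowing up to 0.0517 and 0.0601 TPM. Slc25a17, a peroxisomal carrier of cofactors and adenine nucleotides, stood at 4.36 and 4.44 TPM. Slc25a31, the ADP/ATP carrier of the male germ line, had 8 and 7 counts (0.101 TPM in both libraries), and the testis markers Prm1, Prm2 and Tnp1 had 0.

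Among the 4 carriers of di- and tricarboxylates, 1 held nearly the whole sum of 220.4 ± 8.59 TPM. Slc25a11, the oxoglutarate carrier that exchanges oxoglutarate for malate in the malate-aspartate shuttle, stood at 206.7 and 218.3 TPM and ranked 241 among nuclear protein-coding genes. Slc25a10, the dicarboxylate carrier, stood at 4.99 and 5.00 TPM. Slc25a1, the citrate carrier that exports acetyl units for lipid synthesis, stood at 2.54 and 2.997 TPM. Slc25a21, a carrier of oxoadipate in lysine breakdown, had 14 and 13 counts, or 0.181 and 0.221 TPM. Exons of Slc25a11 overlap those of Rnf167 on the opposite strand, and exons of Slc25a21 those of Pax9. Over all roles, 12 of 44 members overlap exons of a gene on the opposite strand. Among them are also Slc25a10, Slc25a18, Slc25a23, Slc25a25, Slc25a26, Slc25a33, Slc25a35, Slc25a37 and Slc25a46. Whether counting used the strand was not given in the sources used here, so the levels of these members are uncertain to that extent.

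The aspartate/glutamate carriers, the partners of Slc25a11 in the malate-aspartate shuttle, led the 9 amino acid carriers, which summed to 178.7 ± 3.75 TPM. Slc25a12, known as aralar, stood at 85.3 and 84.4 TPM, and Slc25a13, known as citrin, at 49.9 and 49.8 TPM. Both genes gave nearly the same level in the replicates, and Slc25a12 lay 1.70-fold ± 0.0095 above Slc25a13. In the direct tables Slc25a12 was lower, at 64.6 and 69.1 TPM, and the ratio was 1.36 and 1.40. These ratios are of gene totals over all transcripts. In the alignment-based tables the full-length coding Slc25a12-206 held 9.74% and 10.5% of Slc25a12. The coding Slc25a13-203 held 95.75% and 99.07% of Slc25a13.

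Slc25a22, a glutamate carrier, stood at 24.6 and 20.2 TPM, and its close relative Slc25a18 had 8 and 7 counts (0.111 and 0.121 TPM). Of the remaining amino acid carriers, the glycine carrier Slc25a38, which feeds haem synthesis, stood at 7.28 and 7.49 TPM. The basic amino acid carrier Slc25a29 (5.45 and 4.54 TPM), the branched-chain amino acid carrier Slc25a44 (4.76 and 5.04 TPM) and the ornithine carrier Slc25a15 of the urea cycle (3.96 and 4.41 TPM) were lower. The second ornithine carrier, Slc25a2, had 3 counts in each library.

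All 8 carriers of cofactors and nucleotides were detected, and they summed to 101.9 ± 3.18 TPM, or 6.54% ± 0.125 of the TPM of all members. Slc25a51, the mitochondrial NAD+ transporter, was the highest, at 27.2 and 31.7 TPM. Slc25a42, which imports coenzyme A, stood at 18.7 and 17.0 TPM, and its relative Slc25a16 at 7.63 and 7.90 TPM. The pyrimidine nucleotide carriers Slc25a36 (12.5 and 13.3 TPM) and Slc25a33 (8.23 and 8.41 TPM) lay in the same range. Slc25a26, which imports S-adenosylmethionine, stood at 8.04 and 6.93 TPM. Slc25a32, a folate and flavin carrier, stood at 5.00 and 5.36 TPM. Within this role the levels spanned a narrow range, with no member under 5 TPM in either library.

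The 4 carriers of iron and glutathione summed to 78.8 ± 1.45 TPM. Slc25a39, a glutathione importer, stood at 61.4 and 63.3 TPM and was the fourth most abundant member, whereas its relative Slc25a40 stood at 3.05 and 3.52 TPM. Of the iron importers, mitoferrin 2, Slc25a28, stood at 9.51 and 8.52 TPM, and mitoferrin 1, Slc25a37, which is best known from red cell precursors, at 3.76 and 4.495 TPM. Erythroid markers were present in these libraries, with 4 of 6 detected and a sum of 1482 and 1753 TPM, most of it globin. Their part in the level of Slc25a37 was not tested.

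The 3 relatives of the uncoupling proteins were low. Slc25a30 stood at 3.56 and 3.45 TPM, the brain-rich Slc25a27 at 1.31 and 0.935 TPM and Slc25a14 at 0.775 and 0.975 TPM.

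The 9 members listed without an agreed substrate summed to 68.1 ± 2.82 TPM, and 1 of them held most of it. Slc25a34, a little-studied carrier, stood at 48.8 and 41.7 TPM and was the sixth most abundant member. Slc25a46, an outer membrane relative with a role in mitochondrial shape, followed at 14.9 and 17.3 TPM. Slc25a47, known from liver, stood at 2.38 and 2.81 TPM, while the liver markers together reached 0.805 and 2.27 TPM and none was detected in both libraries. It lies head to head with Slc25a29 on chromosome 12 (Slc25a29 at 108825873 to 108835883 on the minus strand, Slc25a47 at 108836046 to 108856815 on the plus strand). Slc25a35 stood at 1.45 and 2.23 TPM, Slc25a53 at 1.30 and 1.07 TPM and Slc25a45 at 1.24 and 0.965 TPM. In the alignment-based tables the coding Slc25a53-214 held 5.18% and 4.51% of its gene's TPM. The coding Slc25a47-201 held 24.2% and 21.91% there, below the non-coding Slc25a47-205 with 39.31% and 37.35%. Slc25a43 had 0 and 3 counts, and Slc25a48, like Slc25a54, had 0 in both libraries, which allows up to 0.0236 and 0.0275 TPM. In 5 of the 7 roles 1 member exceeded the summed TPM of the other members of that role, namely Slc25a3, Slc25a11, Slc25a39, Slc25a30 and Slc25a34.

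Related carriers were present at unequal levels. The TPM ratios of 8 pairs of relatives, of which Slc25a34 and Slc25a35 have no agreed substrate, ranged from 1.55 ± 0.045 for Slc25a36 over Slc25a33 to 195 ± 38.5 for Slc25a22 over Slc25a18, whose lower gene rests on 8 and 7 counts. Slc25a42 over Slc25a16 gave 2.30 ± 0.21, Slc25a28 over Slc25a37 gave 2.21 ± 0.447, and Slc25a23 over Slc25a25 gave 7.97 ± 1.66. Slc25a39 lay 19.1-fold ± 1.54 above Slc25a40. Slc25a34 over Slc25a35 varied most against its mean, with ratios of 33.7 in replicate 1 and 18.7 in replicate 2. The first gene of each pair was the higher one by gene total in both libraries and in both kinds of table. The order of totals within pairs was thus the same while some ratios were imprecise. Long identical stretches that could share reads were absent from the coding sequences compared within pairs, 1 per gene. These coding sequences were 56.9% (Slc25a42 and Slc25a16) to 71.3% (Slc25a22 and Slc25a18) identical, and no pair shared a 31-base word in them. Untranslated parts were not compared within pairs. Over all members, 22 of 44 shared no 31-base word with any other gene and the highest share was 7.78% for Slc25a36, with 40 of 44 members under 5%.

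**Figure D3:**
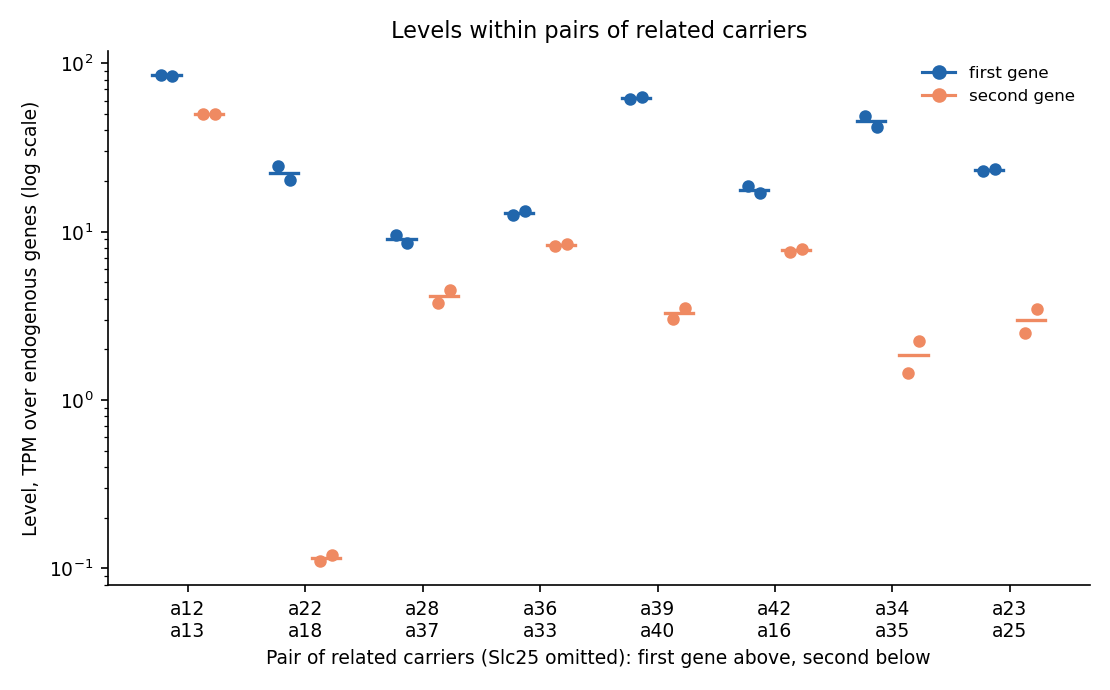
Levels of 8 pairs of related carriers in TPM over endogenous genes on a log scale, with 1 point per library (replicate 1 left, replicate 2 right) and a line at the mean; gene names omit Slc25. In each pair both libraries of the first gene (blue) lie above both of the second (orange), least apart for Slc25a36 and Slc25a33 (12.5 and 13.3 against 8.23 and 8.41 TPM).

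Main transcripts that are not of the protein-coding type were about as frequent among abundant carriers as among nuclear protein-coding genes. Of the 19 members with at least 5 TPM in both libraries, 1 (5.26%) had a main transcript that is not of the protein-coding type, against 6.84% of 6695 nuclear protein-coding genes, and that member was Slc25a12. Its main transcript Slc25a12-207 is annotated as a target of nonsense-mediated decay, a pathway that degrades messages with a premature stop. It held 65.93% and 68.18% of the gene's TPM in the alignment-based and 68.28% and 66.22% in the direct tables. The full-length coding transcript Slc25a12-206 held 9.74% and 10.5%, and 16.02% and 15.64% in the direct tables.

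The 2 transcripts differ in a coding exon that Slc25a12-207 skips, shown here because its presence separates the full-length reading frame from the annotated decay form. It is exon 4 of Slc25a12-206, 116 bases long, at chr2:71333605-71333720 on the minus strand of mm10, taken from GENCODE M21 and written 5′ to 3′ along the transcript with no part in capitals.
Slc25a12 exon 4: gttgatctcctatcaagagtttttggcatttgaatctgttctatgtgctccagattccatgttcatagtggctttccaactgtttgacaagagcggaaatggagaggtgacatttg
Transcripts that hold this exon took 22.32% and 21.05% of the TPM of Slc25a12, and 17.36% and 16.16% in the direct tables. They were the coding Slc25a12-206 and the non-coding Slc25a12-201 of 550 bases. Slc25a12-201 held 12.58% and 10.55%, and 1.34% and 0.52% in the direct tables. Another 11.77% and 10.77% in the alignment-based tables lay on short transcripts that do not reach the exon. Slc25a12-206 and Slc25a12-207 have 15 exons in common and also differ in their first and last exons. Slc25a12-206 has 6351 bases with a last exon of 4291 bases, and Slc25a12-207 has 2392 bases with a last exon of 664. By which of these differences reads were assigned was not tested, since the tables hold no reads, so the shares do not measure how often the exon was skipped.

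In the alignment-based tables most of the abundant carriers were placed mainly on 1 coding transcript. The median share of the main transcript there was 86.9% over the 19 members, Slc25a12 included, and 67.6% over the 6695 nuclear protein-coding genes. The same main transcript was found in both kinds of table of both libraries for 14 of 19 members (73.7%), against 77.3% of nuclear protein-coding genes. The 5 others were Slc25a51, Slc25a22, Slc25a42, Slc25a32 and Slc25a23. For Slc25a42 the alignment-based tables put 87.6% and 91.03% on Slc25a42-201 and the direct ones put 80.7% and 70.53% on Slc25a42-202. For Slc25a22 the main transcript was Slc25a22-203 in the alignment-based tables (62.22% and 61.61%), and Slc25a22-223 held 49.48% and 19.28% in the direct tables. Slc25a22-203 held 2.91% and 28.33% there, so it still led in replicate 2. In both genes the transcripts named so far have identical coding exons and differ in untranslated parts. Transcripts of Slc25a22 with other content also differed between tables, the shorter coding Slc25a22-209 with 13.9% and 13.0% against 17.26% and 23.87% in the direct ones, and the retained-intron Slc25a22-212 with 2.45% and 0.87% against 13.51% and 15.88%. In Slc25a13, Slc25a13-203 held 95.75% and 99.07% in the alignment-based tables, and the direct tables split the gene between it and Slc25a13-201 (35.07% and 30.07%), which has the same coding exons.

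Slc25a51, Slc25a23, Slc25a32, Slc25a28 and Slc25a36 were among the 6 members besides Slc25a3 whose main transcript held the smallest share. In the alignment-based tables the coding transcripts Slc25a51-201 (44.21% and 37.76%) and Slc25a51-205 (39.92% and 40.99%) were close to each other. The direct tables put 10.08% and 39.39% on the first and 8.77% and 6.13% on the other, and Slc25a51-202, at 0 in the alignment-based tables, held 43.12% and 7.81%. The transcripts of Slc25a51 thus differed more between tables than between libraries of the alignment-based kind. Slc25a23 was divided between the full-length Slc25a23-201 (46.7% and 51.82%) and the short coding transcript Slc25a23-206 of 598 bases (50.39% and 46.29%), so its leading transcript changed between the libraries, whereas Slc25a23-206 led in both direct tables (47.77% and 51.18%). In Slc25a32 the shorter Slc25a32-203 held 52.86% and 53.89% and Slc25a32-201 held 47.14% and 38.39%, while in the direct tables Slc25a32-201 led with 52.42% and 50.01%. In Slc25a28 the non-coding Slc25a28-203 took 30.3% and 40.78% beside the coding Slc25a28-201 (60.53% and 52.43%), and 36.36% and 36.22% in the direct tables. In Slc25a36 the retained-intron transcript Slc25a36-205 took 19.89% and 23.13% beside the coding Slc25a36-202 (56.6% and 59.19%). The direct tables put 34.11% and 31.61% on Slc25a36-202 and 23.2% and 29.37% on Slc25a36-201, which the alignment-based tables left at 0. A gene's TPM in these cases therefore includes transcripts that do not encode the whole carrier.

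Carriers differed little between the replicates. With libraries scaled by TMM, 2 of 35 members whose counts averaged at least 50 (5.7%) were at least 25% apart, the higher library over the lower, against 9.78% of 11621 nuclear protein-coding genes, and 0 members were 2-fold apart, against 0.275%. The median absolute log2 ratio was 0.09 over these members and 0.10 over nuclear protein-coding genes, and the biological coefficient of variation was 0.0675 and 0.0719. Log2 ratios of replicate 2 over replicate 1 were above 0 for 15 members (42.9%, against 49.4% of nuclear protein-coding genes) and below 0 for 20. The share past 25% was below the background share here, but with a minimum mean count of 200 it was 2 of 28 (7.14%) against 5.23%.

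Of the pair past this threshold, Slc25a22 was higher in replicate 1, with 1903 and 1259 counts, a 1.36-fold difference (95% counting interval 1.27 to 1.46). The background in that direction was 4.45%. Its TPM values, 24.6 and 20.2, lay closer together than its counts. Slc25a25 was higher in replicate 2, with 249 and 295 counts, a 1.31-fold difference (counting interval 1.11 to 1.56), where the background was 5.33%. Exons of Slc25a25 overlap those of Naif1 on the opposite strand. Smooth muscle and adipocyte markers were higher in the same library, as given above, and their part in the difference of Slc25a25 was not tested.

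Just under the threshold lay Slc25a27 with 103 and 74 counts (log2 ratio -0.32), Slc25a34 with 4866 and 3577 counts (log2 ratio -0.29, or 1.23-fold with a counting interval of 1.17 to 1.28) and Slc25a28 with 513 and 382 counts (log2 ratio -0.27). All 3 were higher in replicate 1. The counting interval of the fold lay above 1 for Slc25a34 and for Slc25a28 (1.06 to 1.39), whereas that of Slc25a27, 0.922 to 1.72, included 1. Slc25a35, whose TPM values differed most in ratio among detected members (1.45 and 2.23), had 119 and 127 counts with a log2 ratio of 0.24, so its counts lay closer together than its TPM.

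**Figure D4:**
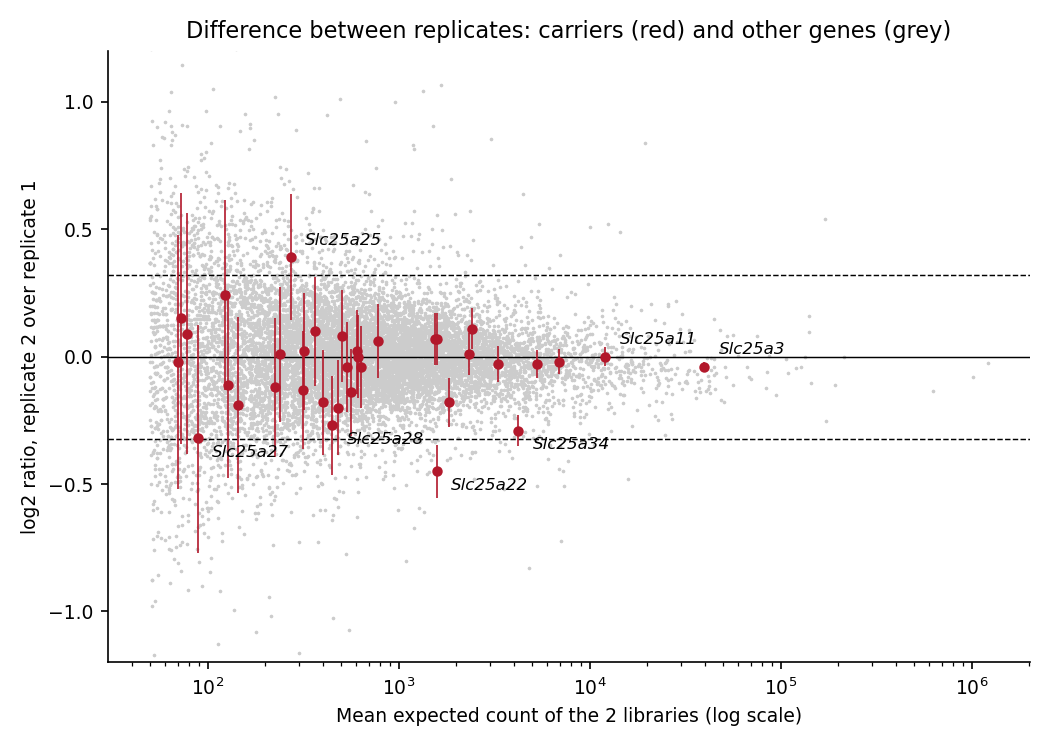
Log2 ratio of scaled counts, replicate 2 over replicate 1, against the mean expected count of the libraries (log scale), for 35 carriers (red, with 95% counting intervals) and other nuclear protein-coding genes (grey); dashed lines mark a difference of 25%, and genes beyond the vertical limits are not drawn. Only Slc25a25 (0.39) and Slc25a22 (-0.45) among the carriers lie beyond the dashed lines.

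The scaling set how many carriers passed. Scaled by spike-in totals, the median log2 ratio of nuclear protein-coding genes was 0.22 and that of the members 0.20, all 5 members past 25% were higher in replicate 2 (Slc25a25, Slc25a35, Slc25a30, Slc25a46 and Slc25a53), and the background was 26.3%. Slc25a22 did not pass on that scale.

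Gene levels of the abundant carriers were mostly close between the kinds of table, as they were over nuclear protein-coding genes. Among the 19 members with at least 5 TPM, 0 were 1.5-fold apart between the direct and the alignment-based tables in both libraries, against 2.22% of 6846 nuclear protein-coding genes. The median log2 ratio, direct over alignment-based, was -0.09 over members and -0.04 over nuclear protein-coding genes. The lowest was Slc25a12, whose level in the direct tables was 0.76 and 0.82 of that in the alignment-based ones. Tables that placed transcripts of Slc25a42 and Slc25a22 differently thus gave both genes nearly the same total.

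**Figure D5:**
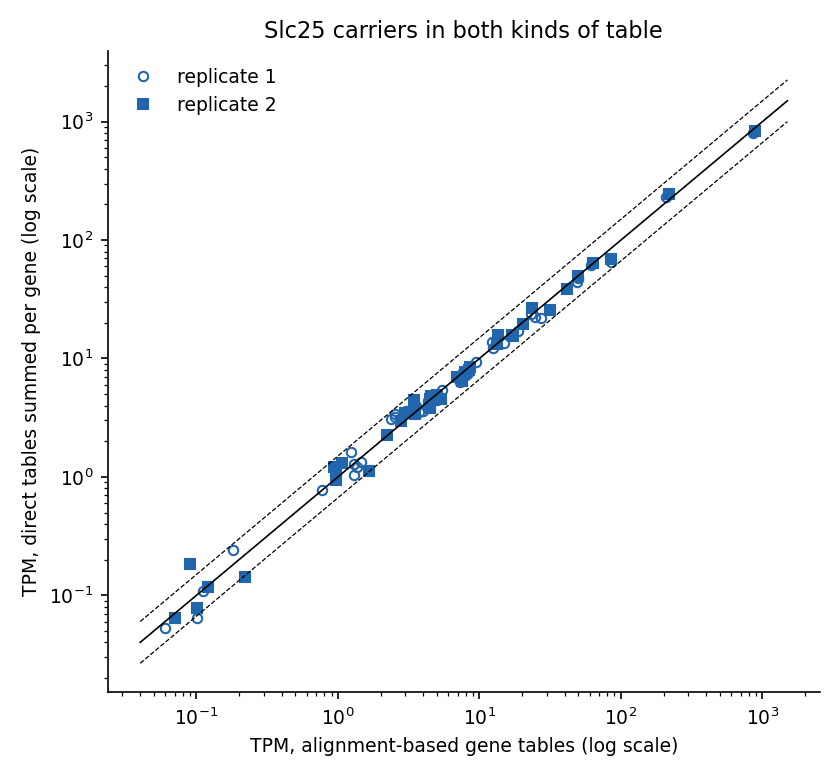
Level of each carrier in the direct transcript tables summed per gene against its level in the alignment-based gene tables, in TPM on log scales, for replicate 1 (open circles) and replicate 2 (filled squares). The solid line marks equality and the dashed lines 1.5-fold, and the 19 carriers with at least 5 TPM lie between the dashed lines.

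The listed genes of the carrier import pathway, from the outer membrane to the inner, were all expressed. Of the 13 genes of the carrier import list, 13 were detected, with a median of 26.3 TPM and a range of 5.78 to 104.4 TPM. The highest were the small intermembrane space chaperones that escort carriers, Timm8b (99.96 and 108.9 TPM), Timm10 (38.6 and 45.7 TPM) and Timm13 (39.9 and 43.6 TPM). Between replicates 1 of 13 passed 25%, against 9.78% of nuclear protein-coding genes (5.33% higher in replicate 2). It was the chaperone Timm8a1, at 5.75 TPM in replicate 1 and 8.40 TPM in replicate 2. The log2 ratio was above 0 for 11 of 13, with a median of 0.15, and for 49.4% of nuclear protein-coding genes.

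Of 17 other mitochondrial transporters and carrier relatives 16 were detected in both libraries, with a median of 51.6 TPM. Not all of them are inner membrane transporters, since the carrier relatives Mtch1 (63.2 and 69.6 TPM) and Mtch2 (53.2 and 60.3 TPM) were included. The highest were Slc25a4 and the pyruvate carrier subunits Mpc1 (281 and 300 TPM) and Mpc2 (195 TPM in both). Slc25a3 and Slc25a11 fell in the same range as these. The uncoupling proteins Ucp2 (89.2 and 69.2 TPM) and Ucp3 (18.001 and 12.4 TPM) and the sideroflexins Sfxn2 (1.58 and 1.30 TPM) and Sfxn4 (3.50 and 2.97 TPM) were at least 25% higher in replicate 1, and Ucp1 (0.533 and 1.35 TPM), which marks brown fat, was higher in replicate 2. The background shares were 4.45% and 5.33%.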

How the data were processed

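Total RNA-seq of heart in 2 libraries was analysed, made with a directional kit and spike-ins per the labels. They held 45599940 and 40801299 expected counts. Per the file headers, the authors deposited unnormalised expected counts of reads for genes and transcripts, named estimated counts where reads were quantified directly. TPM was deposited by the authors over all genes and spike-ins, on mm10 with GENCODE M21. The authors also deposited, for alignment-based transcripts, the percentage that each takes of its gene's TPM. Credibility bounds of TPM, a signal deposited by the authors, were not used. The aligner, the quantifiers and any strand setting are not given in the sources used here. No other columns of sample values were found (0).

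TPM was rescaled to endogenous genes (spike-ins and phiX took 0.413% and 0.357% of counts), and direct tables were summed per gene. Expected counts were rounded and scaled with TMM in edgeR 4.0.16 (R 4.3.3), with DESeq2 1.42.0 size factors as an alternative. Log2 ratios carried a prior count of 2, and folds have 95% intervals that cover counting error only. A count of 0 allows up to 3 counts. Tables were compared at 5 TPM or more with a pseudocount of 0.5. Sequences and 31-base words came from the GENCODE M21 transcripts, read with Python 3.11.15, numpy 2.4.6, pandas 2.3.3, scipy 1.17.1, Biopython 1.88 and matplotlib 3.10.9.

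Members, roles and lists were chosen with earlier results of these data known. Values per library are given by rule for the 12 most abundant members, the pairs, the 5 largest replicate differences and the 3 highest genes of the other lists and any past 25% between replicates, and transcripts for Slc25a3 and the 6 members with the smallest main share. Other values, and the transcripts of Slc25a12, Slc25a13, Slc25a22, Slc25a42, Slc25a47 and Slc25a53, were chosen after they were seen. Of the members, 1 is counted in totals but is not reported here. Proteins and alleles of CAST were not analysed here.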

Additional observations from a re-analysis of the deposited data

How the results depend on the processing

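Of 92 alternatives, 71 kept their value within the spread between replicates or within 1.5 times a count and 21 moved it. Leaving out a library always moved a share or pair ratio by less than the SD of both libraries. Those alternatives therefore could not count as moved. No alternative turned the order of gene totals within a pair, but spike-in scaling changed the sign of the members' median log2 ratio. With a minimum of 5 TPM, 19 members were detected and their median was 16.08 TPM. Without a filter the median was 4.65 TPM. In the direct tables it was 6.419 TPM, the share of endogenous TPM was 0.1495%, that of Slc25a3 among members 54.6% and that of exon A 82.57%. Over expected counts, which are not corrected for length, the members' share was 0.2109% and that of Slc25a3 43.68%. Over nuclear protein-coding genes the share was 0.4593%, and the median TPM rescaled to them, an alternative added after seeing the data, was 21.78. Spike-in totals put 5 of 35 members (14.3%) and 7 of 13 import genes past 25%, against 26.3% of 11621 nuclear protein-coding genes. The median log2 ratio over members was 0.2 on that scale, where TMM gave -0.018. Calls among members turned from 1 in each direction to 5 higher in replicate 2. At 1.5-fold and at 2-fold 0 members passed. No prior count, also added after seeing the data, gave 3 of 35 members, with Slc25a27 besides Slc25a22 and Slc25a25. The share over nuclear protein-coding genes was not computed at that setting. The same main transcript held for 26 of 33 members with at least 1 TPM and for 6 of 9 with at least 20 TPM, since other numbers of members entered. Of 27 alternative pair ratios 3 moved, all in the direct tables, to 1.381 for Slc25a12 over Slc25a13, 1.641 for Slc25a36 over Slc25a33 and 3.457 for Slc25a3 over Slc25a11. By this measure only the direct tables could move a pair ratio. In either library alone 33 or 35 members were detected, the median was 7.275 to 7.492 TPM, the members' share 0.1544% to 0.1571%, that of Slc25a3 55.94% to 55.99% and that of exon A 92.49% to 93.35%, and 16 members kept 1 main transcript across tables. Where a cause is not named, the cause was not tested.

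No paired analysis was possible because the study held 1 group, and leaving out a library leaves no difference between replicates to compute. With 2 libraries of 1 donor identifier the spread between animals is not known. Counts under 50 limited the 9 members left out of the replicate comparison, and the deposited tables hold no reads, so the exons of Slc25a3 and Slc25a12 could not be counted by junction.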
